A study of Mus musculus with 6 samples.

Results

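The core circadian clock genes were examined in cells of the inguinal lymph node, which drains the flank and groin. The 10 genes were chosen by their role in the clock, and each of the 10 is among the 23307 genes of the deposited table. RNA-seq was performed on nodes of SJL mice in which experimental autoimmune encephalomyelitis (EAE), the mouse disease used to model multiple sclerosis, had been induced, and day 3 was the day of collection. The treated group was 3 mice given perampanel, an epilepsy medicine and antagonist of the AMPA class of glutamate receptors, and the other was 3 control mice of the same strain with the same EAE induction. The nodes were meshed to cell suspensions before RNA was purified, and the labels describe the cells as lymphocytes. The agent given to the controls, the drug dose, the age of the mice and the hour at which nodes were taken are not stated in the labels.

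The clock is a feedback loop of transcription. The activators BMAL1 (gene Arntl) and CLOCK bind E-boxes and switch on the Per and Cry genes, whose proteins return to the nucleus and repress them. The nuclear receptors REV-ERB alpha and beta (Nr1d1, Nr1d2) repress Arntl through ROR elements, and the transcription factors DBP and TEF pass the rhythm to outputs through D-boxes. In mouse peripheral tissues Arntl peaks at roughly the opposite time of day to Nr1d1 and Dbp, glucocorticoids can induce Per1 directly, and lymphocyte traffic through mouse lymph nodes follows a daily rhythm.

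The comparison of perampanel with control addresses whether the groups differed in clock phase, as far as the levels of clock genes show it. No clock gene passed the test. Of 10 members 8 reached the mean of 10 normalized read counts needed for testing, and 0 of the 8 were called by limma, against 1.10% of all 9076 genes tested. A call needed an adjusted p (Benjamini-Hochberg, over all genes tested) under 0.05. The count at an unadjusted p under 0.05 was 0 by limma and by limma-voom and 1 by edgeR, which was Per1, against 9.33% of all genes by limma. By limma, Per1 was also under an unadjusted 0.05 with no filter (0.0416), with the replicate block (0.0495), with thinned libraries (0.0375) and without perampanel 1 (0.00540), with adjusted p-values of at least 0.187. DESeq2 gave no member an adjusted p, and 0 an unadjusted p under 0.05. Clock and Per1 had the largest fold changes, both close to 1.29-fold. The activator Arntl (log2 0.02) and the output Dbp (log2 -0.03), whose rhythms run in opposite phase, were at nearly equal levels in both groups.

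Libraries held 1779724 to 2208589 reads assigned to genes, and each perampanel library (1779724 to 2003726) was shallower than each control library (2036072 to 2208589). A floor of 3 reads was 1.36 to 1.69 CPM (counts scaled to library size). Marker genes were those of lymphocytes, mostly T cells. The 8 T cell markers summed to 10764 to 11769 normalized read counts in controls and 11674 to 12213 under perampanel, and 1 of the 8, Trac, was called as higher by limma (log2 0.16, adjusted p = 0.0304). Cd8a was at log2 -0.36 (95% interval -0.58 to -0.13, limma adjusted p = 0.130), with each perampanel library below each control, as for Cd8b1 (-0.14), and 2 of the 8, Trac and Cd8a, had an unadjusted p under 0.05. The 7 B cell markers summed to 59.7 to 115 and 50.4 to 71.6, and 0 of the 4 tested were called (median log2 -0.64, 1 at an unadjusted p under 0.05). Over all genes tested, limma called 1.10% and gave 9.33% an unadjusted p under 0.05, and 14.1% had groups without overlap. Myeloid markers (8 genes, 2 of them, Cd14 and Adgre1, at 0 in every library) summed to 20.2 to 30.5 and 21.4 to 35.5, and dendritic cell markers (6 genes, Clec9a at 0) to 1.84 to 6.39 and 1.01 to 3.43. Of 8 stromal markers Ccl21a and Ccl19 were at 0, and Pecam1, which lymphocytes also express, made up most of a sum of 179 to 208 in controls and 202 to 247 under perampanel. Fat markers (5 genes, Cfd at 0) summed to 5.48 to 6.43 and 3.06 to 13.1. Markers of muscle and nerve (6 genes) summed to 253 to 279 and 258 to 282, nearly all of it from Mbp. In such bulk samples fewer cells of a type and less RNA per cell cannot be told apart.

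Per kilobase of exon, Dbp had the highest level of the 10 genes, although 18.0% of its exon bases overlap exons of Sphk2 on the other strand. Its level was 10.6 ± 0.505 RPKM (reads per kilobase, scaled to library size; SD over the 6 libraries), above Cry1 at 8.24 ± 1.19 with no overlap between the libraries of the pair. Per1 (5.30 ± 1.23) and Nr1d2 (3.71 ± 0.807) came next. Cry1 and Per1 overlapped across libraries, as did Per1 and Nr1d2, although Cry1 lay above Per1 in each of the 6 libraries. Tef (2.04 ± 0.320) and Arntl (1.74 ± 0.332) overlapped, and Arntl in turn overlapped Clock (1.24 ± 0.229) while lying above it within each library. Nr1d1 (0.936 ± 0.349) overlapped both Clock and Per2 (0.869 ± 0.136), and Per3 (0.331 ± 0.114) was lowest, below every library of Per2. The order was the same when the longest transcript was used as the length. Nr1d1 and Nr1d2, paralogs that act on the same elements, thus stood apart in level, with all 6 libraries of Nr1d2 above all 6 of Nr1d1.

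**Figure D1:**
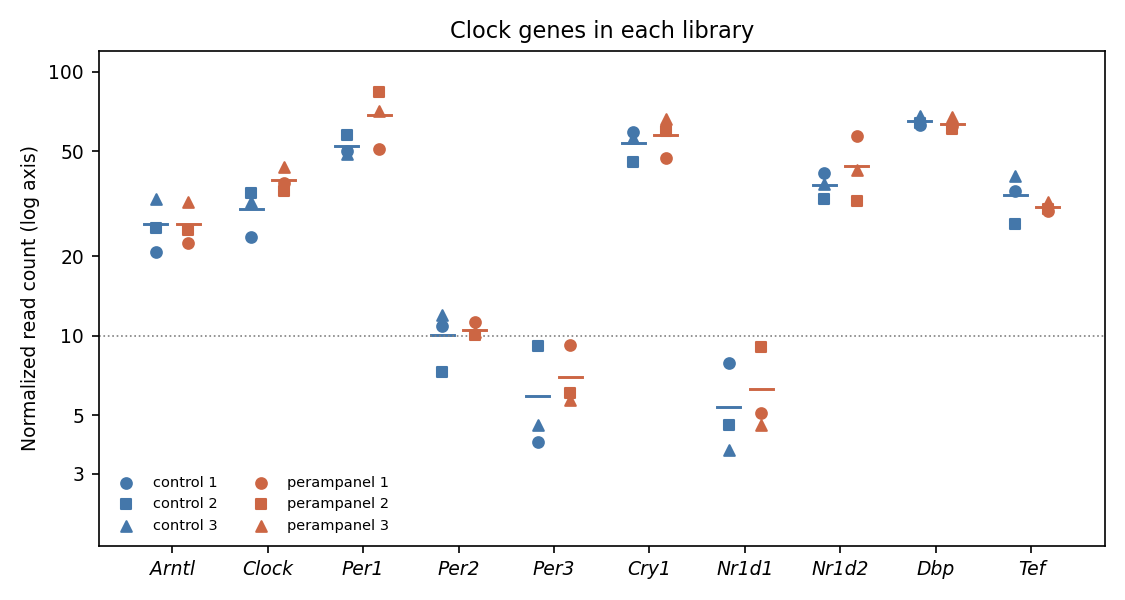
Normalized read count of each clock gene (log axis) in the 3 control (blue) and 3 perampanel libraries (orange), with a symbol for each replicate number and a bar at each group mean; the dotted line marks the mean of 10 needed for testing. Clock is the only gene whose groups do not overlap, and Nr1d1 and Per3 lie under the line on average.

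The activators did not pass the test. Arntl (chromosome 7, 113207465 to 113314126, GRCm38, plus strand, protein-coding) encodes BMAL1, the partner without which the loop stops in mice. Controls 1 to 3 had 20.7, 25.6 and 33.1 normalized read counts of Arntl, and perampanel 1 to 3 had 22.4, 25.2 and 32.1. The groups spanned nearly the same range, and the fold change was log2 0.02 (95% interval -0.51 to 0.54, limma adjusted p = 0.993). Clock (chromosome 5, 76209868 to 76304792, minus strand) encodes the partner of BMAL1 in the activator dimer. It was at 23.6, 34.7 and 32.1 in controls and 37.7, 35.3 and 43.5 under perampanel, so the lowest treated library lay just above the highest control. The means were 30.2 ± 5.80 and 38.8 ± 4.21 (SD, n = 3 each), with a fold change of log2 0.37 (-0.09 to 0.82, limma adjusted p = 0.656). Groups without overlap were seen in 1 of the 8 tested clock genes and in 14.1% of all genes tested, and without control 1 the fold change of Clock was 0.21.

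The period genes differed from one another in level and in spread. Per1 (chromosome 11, 69095217 to 69109960, plus strand) encodes a repressor that is also an early target of glucocorticoid and cyclic AMP signals. Controls had 50.2, 57.5 and 48.7 normalized read counts of it, and perampanel libraries 51.0, 83.7 and 71.0. Perampanel 2 and 3 lay above the controls and perampanel 1 among them. The fold change was log2 0.36 (95% interval -0.01 to 0.74, limma unadjusted p = 0.0562 and adjusted p = 0.549). It was 0.21 without perampanel 2 (limma adjusted p = 0.843) and 0.56 without perampanel 1 (adjusted p = 0.187). Of the 10 tested genes of the early response to stimulation, 5 were highest in perampanel 2 (Fos, Junb, Nr4a1, Nr4a3 and Crem), 3 in perampanel 3 (Egr1, Egr2 and Egr3), 1 in control 2 (Jun) and 1 in control 3 (Ier2), a count made after the values were seen. Among them Nr4a1 was at 199.7 there, against 84.6 to 98.4 in the others, while Egr2 was lowest there (21.2, against 30.6 to 41.2). The part of that response in the Per1 value was not tested.

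Per2 (chromosome 1, 91415982 to 91459324, minus strand), the period gene that is rate-limiting for the loop in many mouse tissues, was at 10.8, 7.31 and 11.9 in controls and 11.2, 10.1 and 10.3 under perampanel. The perampanel values lay inside the control range, and the fold change was log2 0.09 with a wide interval of -0.74 to 0.92 (limma adjusted p = 0.973). Per3 (chromosome 4, 151003652 to 151044665, minus strand), a period gene that the loop can do without in mice, was at 3.94, 9.13 and 4.59 in controls and 9.18, 6.05 and 5.72 under perampanel. It was below the minimum for testing, with 19 reads in the 3 controls and 20 in the 3 perampanel libraries. The ratio of reads scaled to library size was 1.17, with an exact 95% interval of 0.593 to 2.32 that covers counting error only. Cry1 (chromosome 10, 85131700 to 85185064, minus strand), the cryptochrome that gives the late repression of the loop, was at 59.1, 45.7 and 56.0 in controls and 46.9, 59.5 and 66.4 under perampanel. The groups overlapped and the fold change was log2 0.10 (-0.27 to 0.47, limma adjusted p = 0.920).

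The REV-ERB genes are direct readouts of the activators and among the most rhythmic transcripts of many mouse tissues. Nr1d2 (chromosome 14, 18204054 to 18239127, minus strand) was at 41.3, 32.9 and 37.7 in controls and 57.1, 32.3 and 42.4 under perampanel. Its highest and lowest values were both in treated mice, and the fold change was log2 0.20 (95% interval -0.25 to 0.64, limma adjusted p = 0.839). Without perampanel 1 it was -0.0058. Nr1d1 (chromosome 11, 98767932 to 98775333, minus strand) was at 7.87, 4.57 and 3.67 in controls and 5.10, 9.08 and 4.58 under perampanel, or 4 to 9 reads a library. It was not tested, and the ratio of reads scaled to library size, from 17 control and 18 perampanel reads, was 1.18 (exact 95% interval 0.572 to 2.43, counting error only). Of its exon bases 8.55% overlap exons of Thra on the opposite strand, and the library kit named in the labels does not mark strand, so reads there cannot be assigned to either gene.

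The outputs Dbp and Tef encode activators of the same family that bind D-boxes. Dbp (chromosome 7, 45705088 to 45710203, plus strand) was at 63.0, 63.9 and 68.0 in controls and 62.2, 60.5 and 67.5 under perampanel. Its highest library was 1.12 times its lowest, the narrowest range of the 10 genes, and the fold change was log2 -0.03 (95% interval -0.36 to 0.29, limma adjusted p = 0.973). Exons of Sphk2 on the opposite strand overlap 18.0% of the Dbp exon bases, where the same limit on strand holds. Tef (chromosome 15, 81802421 to 81826863, plus strand) was at 35.4, 26.5 and 40.4 in controls and 29.6, 30.3 and 32.1 under perampanel. The perampanel values lay inside the control range, with a fold change of log2 -0.13 (-0.60 to 0.33, limma adjusted p = 0.910). It was -0.30 without control 2 and -0.0016 without control 3.

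The standard errors of the fit were set beside those that counting alone gives. The members had 35 (Nr1d1) to 388 (Dbp) reads over all 6 libraries, and counting alone gives the log2 fold change of Dbp a standard error of 0.147, against 0.157 in the fit. For Arntl these were 0.229 and 0.257. The fit takes part of its variance from a trend over all genes tested, so such pairs do not measure the part of read depth. Within groups, the spread of reads was 0.147 (Dbp) to 2.28 (Per1) times the counting variance, against a median of 1.28 over all genes tested. Every limma interval of the 8 tested genes lay inside a log2 change of 1 in either direction, and those of Dbp and Cry1 lay inside 0.5. The authors' deposited standard errors were larger, at 0.587 for Per2 and 0.262 for Cry1, against 0.405 and 0.181 in the fit. The bounds are thus those of limma and need not hold with the authors' errors. A change inside the limma intervals was not excluded. The median fold change of the 8 was log2 0.09, with 6 positive and 2 negative, against a median of 0.0014 over all genes, and their median absolute change was 0.11 against 0.13.

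**Figure D2:**
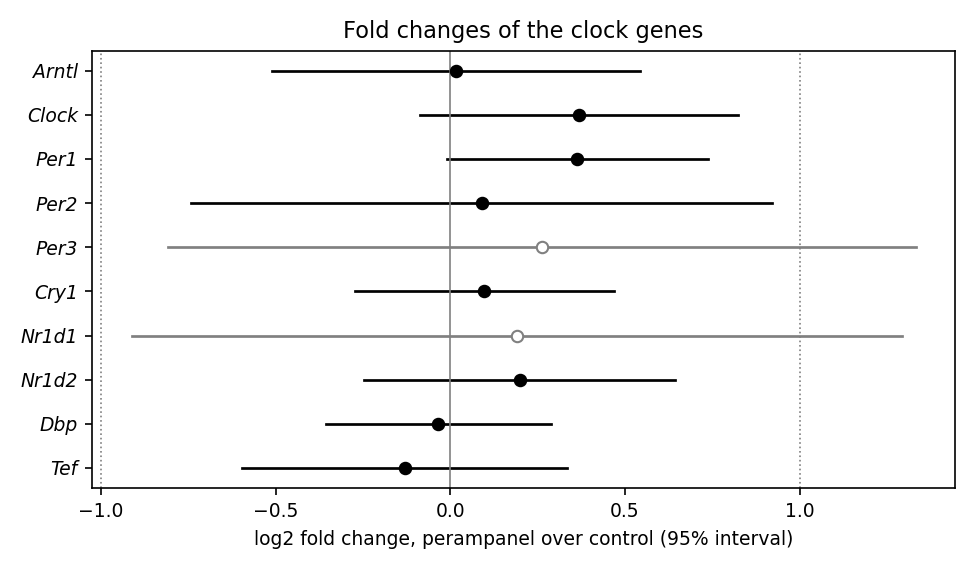
Log2 fold change of perampanel over control with its 95% interval for each clock gene by limma; filled points passed the minimum mean, and open grey points (Per3 and Nr1d1) come from the fit with no filter, where they were 0.26 and 0.19. All 10 intervals shown include 0, and the dotted lines mark a log2 change of 1 in either direction. In the fit with no filter the interval of Per1, not shown, was 0.014 to 0.71 and did not include 0.

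The balance of the loop was described by ratios between genes of opposite phase, which do not depend on scaling between libraries. Per kilobase, the ratio of Dbp to Arntl was 7.66, 6.28 and 5.17 in controls 1 to 3, against 6.97, 6.03 and 5.30 for the perampanel libraries in the same numbering. The treated values lay inside the control range, with means of 6.37 ± 1.25 and 6.10 ± 0.839 (SD, n = 3 each). The ratio of Nr1d2 to Arntl was 2.78, 1.79 and 1.58 in controls, against 3.54, 1.78 and 1.84 under perampanel, and that of Nr1d1 to Arntl 0.931, 0.437 and 0.272 and 0.556, 0.880 and 0.349. Both overlapped between the groups. The ratio of Per1 to Arntl was 3.24, 3.01 and 1.97 in controls, against 3.04, 4.44 and 2.96 under perampanel, and it overlapped too.

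A score over all 10 members, the mean log2 value of Nr1d1, Nr1d2, Dbp, Tef and the Per genes minus that of Arntl, Clock and Cry1, was also computed. Relative to the mean of all libraries it was 0.23, -0.018 and -0.17 in controls, against 0.19, 0.051 and -0.28 under perampanel. The group means differed by -0.026, while the SD within groups was 0.205 and 0.245. The sign of this small difference turned without control 1 (0.083) and without perampanel 3 (0.11). Libraries of 1 group thus differed more in this score than the groups did, and no test was made on it. Nr1d1, Per3 and Per2, with 4 to 9, 4 to 10 and 8 to 13 reads a library, weigh in the score as much as Dbp. The part of counting error in the spread of the score was not tested.

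**Figure D3:**
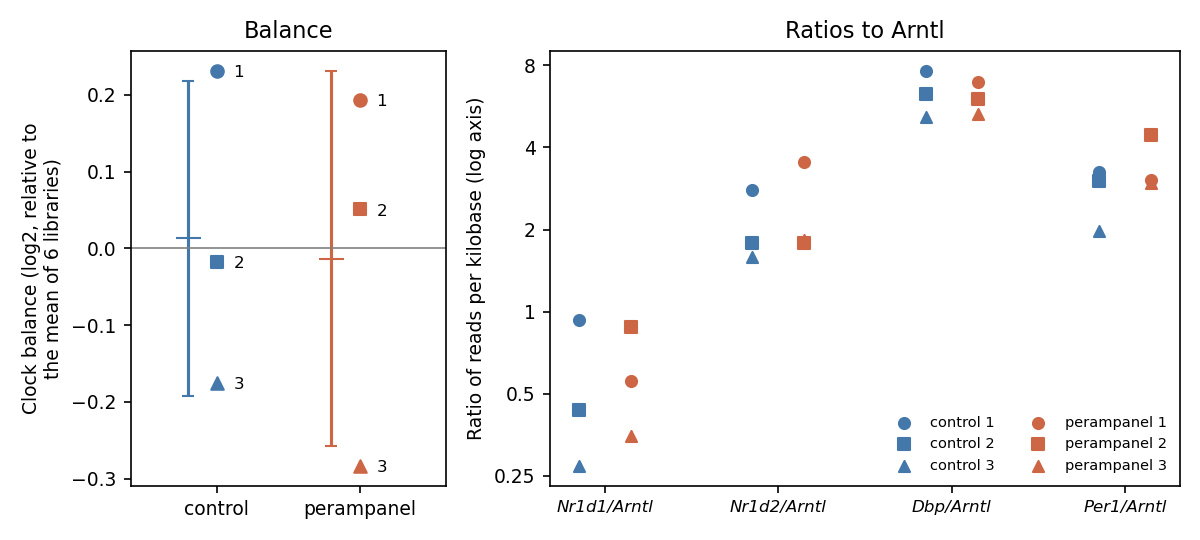
Left, the clock balance score of each library (points, numbered by replicate) with the group mean and SD beside them; right, ratios of reads per kilobase to Arntl (log axis) in each library, control in blue and perampanel in orange. The groups overlap in the score and in all 4 ratios.

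In short windows around their starts, the members shared the elements searched only in part. RefSeq promoter windows (GRCm38.p6, 250 bases before to 50 after a start) were found for 9 of the 10 genes, in 14 windows of which some overlap; Per2 is the exception. The E-box CACGTG occurred in 4 of the 14 windows (28.6%, in Per1, Cry1 and Tef) and in 7.15% of 32851 windows of all genes, searched on both strands. The variant CACGTT occurred in 2 (Cry1 and Nr1d1, 14.3% against 4.68%). The D-box TTATGTAA was found in the window of Per3, where it occurred at 2 places, and in 0.938% of all windows, and TTACGTAA in no member and 0.119% of all. The ROR core TAGGTCA was found once, in Arntl, and in 2.61% of all windows. The shorter core AGGTCA, which TAGGTCA contains, was in 4 windows (28.6% against 16.3%). The full cyclic AMP element TGACGTCA was in none (1.79% of all) and the shorter TGACG, contained in it, in 3 (21.4% against 20.8%), while the glucocorticoid core ACANNNTGT was in none (6.85% of all). Stretches around the E-box, D-box and ROR sites are shown because these are the elements through which the members act on each other. The stretch around another E-box of Tef (chr15:81802506-81802591, plus strand), which overlaps an annotated exon, is not shown. The letters of the named element (E-box, D-box or ROR core) are in capitals and those of the other motifs searched are not, each stretch is read 5′ to 3′ on its gene's strand, and the first 4 lie upstream of a start and in no annotated exon, at chr10:85185069-85185154 (Cry1, minus strand), chr11:69098743-69098828 (Per1, plus), chr15:81811236-81811321 (Tef, plus) and chr4:151044776-151044910 (Per3, minus). The Arntl site lies in an annotated exon at chr7:113207530-113207558 (plus strand), 31 bases after a start.
Cry1: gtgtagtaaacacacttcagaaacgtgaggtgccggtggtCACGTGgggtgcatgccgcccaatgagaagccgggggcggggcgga
Per1: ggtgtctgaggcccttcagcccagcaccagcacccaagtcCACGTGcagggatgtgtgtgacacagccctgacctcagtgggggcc
Tef: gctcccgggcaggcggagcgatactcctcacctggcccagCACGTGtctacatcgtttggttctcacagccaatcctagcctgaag
Per3: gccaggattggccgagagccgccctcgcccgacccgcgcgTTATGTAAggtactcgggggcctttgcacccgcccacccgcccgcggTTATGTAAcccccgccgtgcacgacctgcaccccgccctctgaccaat
Arntl: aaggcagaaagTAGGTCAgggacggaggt
The 3 genes with an E-box in a window had fold changes of log2 0.36 (Per1), 0.10 (Cry1) and -0.13 (Tef), in both directions and none called by limma. A match describes the letters of the window and not binding. Bases outside the windows were not searched, so a gene without a match may still hold the element elsewhere.

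Of 12 further core clock genes 4 were tested and 0 were called by limma (median log2 -0.06), against 1.10% of all genes tested. At an unadjusted p under 0.05 by limma, edgeR and limma-voom was 1 of the 4, Timeless, against 9.33% of all genes by limma. DESeq2 gave none of the 12 an adjusted p. Timeless, which in mammals works mainly at the replication fork, was at 61.0, 55.7 and 55.1 normalized read counts in controls and 46.9, 39.3 and 40.1 under perampanel (log2 -0.44, 95% interval -0.81 to -0.07, limma adjusted p = 0.394), without overlap. Cry2, the other cryptochrome, was at 28.5, 17.4 and 26.6 in controls and 28.6, 30.3 and 32.1 under perampanel (log2 0.34, -0.17 to 0.86, adjusted p = 0.724), with groups that just did not overlap. Without control 2 it was 0.13. Groups without overlap were seen in 2 of the 4 tested genes and in 14.1% of all genes tested. Rora, an activator of Arntl through ROR elements, was at log2 -0.24 and Bhlhe40, a repressor at E-boxes that is also induced in activated T cells, at 0.11 with values from 2.04 to 21.2. Ciart, a repressor of the activator dimer, averaged 6.25 ± 2.78 and 8.71 ± 2.17 (SD, n = 3 each) and Nfil3, the factor that opposes DBP at D-boxes, 3.07 ± 2.91 and 1.69 ± 1.56, and both were too low for testing.

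Enzymes and partners that modify clock proteins did not pass either. Of 19 such genes 18 were tested and 0 called by limma (median log2 -0.04), against 1.10% of all genes tested. Also 0 were called by edgeR, DESeq2 and limma-voom. At an unadjusted p under 0.05 by limma was 1 of the 18, Ddb1, against 9.33% of all genes tested. Ddb1, a subunit of ubiquitin ligases, was at log2 -0.24 (95% interval -0.46 to -0.01, limma adjusted p = 0.499). Cipc, which binds CLOCK and inhibits it, was at -0.32 (-0.10 to -0.51 with 1 library left out), the AMP-activated kinase subunit Prkaa1 at -0.26 (-0.079 to -0.50) and Wdr5, a histone methyltransferase subunit found with PER proteins, at 0.24. The kinases that mark PER proteins for turnover were close to 0, with Csnk1d at 0.01 and Csnk1e at 0.0038, which were named after their values were seen.

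Of 13 genes that cycle in many mouse tissues 8 were tested, 2 were called as higher by limma and 0 as lower (median log2 0.06), against 1.10% called over all genes. As the list was chosen with results known, this count is not independent evidence of its direction. Tsc22d3, a leucine zipper protein induced by glucocorticoids, rose from 615 ± 46.9 to 836 ± 51.9 normalized read counts (SD, n = 3 each; log2 0.44 ± 0.07, SE, limma adjusted p = 0.000623). Cirbp, an RNA-binding protein induced by mild cold, was at 131, 149.8 and 120.3 in controls and 189.7, 186 and 188 under perampanel. The groups were apart, and Cirbp rose by log2 0.49 ± 0.11 (SE, limma adjusted p = 0.0216). It lost the call with DESeq2 (adjusted p = 0.0892), with quantile normalization, with thinned libraries and without any of control 1, control 3 and perampanel 1 to 3, with folds of 0.42 to 0.50. Rbm3, the related cold-induced protein, was at log2 0.03 (95% interval -0.12 to 0.19) and was named after its values were seen. Usp2, a deubiquitinase with strong rhythm in mouse liver, was at -0.32 and Noct, the rhythmic phosphatase nocturnin, at -0.24, neither called.

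Some glucocorticoid-responsive genes rose, while Per1, a member of that list too, did not pass. Of 13 genes 11 were tested, and 5 rose and 0 fell by limma, against 1.10% called over all genes. The median was log2 0.32 (0.0014 over all genes), and as the list was chosen with results known, neither value is independent evidence of its direction. Besides Tsc22d3 these were Il7r (0.53), Cxcr4 (0.63), Txnip (0.38) and Ddit4 (0.32), and Ddit4 lost its call with quantile normalization and without control 1, 2 or 3 or perampanel 3 (0.24 to 0.35). By limma 6 of the 11 had an unadjusted p under 0.05, against 9.33% of all genes tested. Of the 11 fold changes 10 were positive, and the same limit holds for both counts. The uncalled Nfkbia was at 0.17 (95% interval 0.015 to 0.33, limma adjusted p = 0.460) and was named after its values were seen. Fkbp5, a chaperone that glucocorticoids induce in most cells, was at 58.1, 60.3 and 54.2 in controls and 46.9, 43.4 and 67.5 under perampanel (log2 -0.15, 95% interval -0.53 to 0.23). Nr3c1, the glucocorticoid receptor, was at 186 ± 3.11 and 195 ± 6.13 (log2 0.07, -0.14 to 0.27). Klf9, a target of both the receptor and the clock, averaged 7.62 ± 5.50 and 8.62 ± 3.79 and was too low for testing. Zbtb16, another target of the receptor, had 1 read in all.

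Of 13 early response genes, several of which share cyclic AMP signalling with Per1, 10 were tested. By limma 0 were called (median log2 0.06), against 1.10% of all genes tested, and 0 by edgeR, limma-voom or DESeq2. Each of the 4 tools gave 2 genes an unadjusted p under 0.05, against 9.33% of all genes by limma. Nr4a1, an orphan nuclear receptor induced by T cell receptor signals, was at 84.6, 84.9 and 98.3 in controls and 95.9, 199.7 and 98.4 under perampanel (log2 0.47, 95% interval 0.09 to 0.85, limma adjusted p = 0.367). Without perampanel 2 its fold change was 0.12. Egr1, a zinc finger factor of the same response, was at 161, 176 and 228 and at 213, 255 and 292 (log2 0.43, 0.18 to 0.68, adjusted p = 0.0872), and it passed without control 3 (0.57, adjusted p = 0.0130) and without perampanel 1 (0.55, adjusted p = 0.0201). It was 0.33 without control 1 (limma adjusted p = 0.464), 0.32 without perampanel 3 (0.359) and 0.41 with quantile normalization (0.183). Egr2 was at -0.31 and Crem, a cyclic AMP element modulator, at 0.23.

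**Figure D4:**
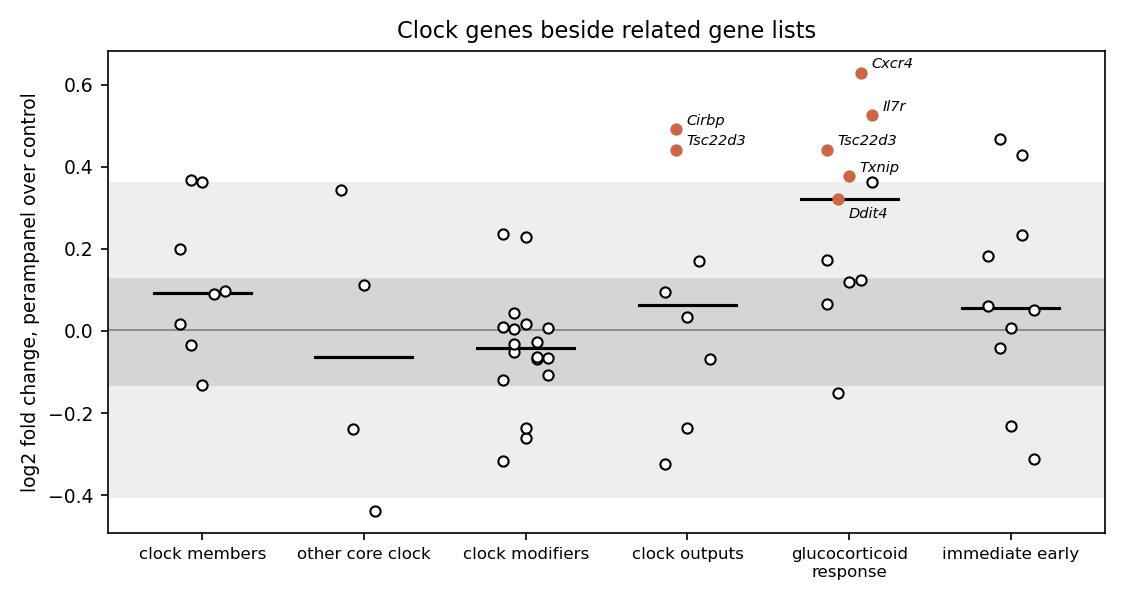
Log2 fold change (perampanel over control) of each tested gene in 6 lists; filled orange points were called by limma, lines mark list medians, and the grey bands hold the middle 50% and 90% of all 9076 tested genes. No member and no other core clock gene is filled, and the filled points lie in the output and glucocorticoid lists, which share Tsc22d3.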

How the data were processed

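Poly(A) RNA-seq libraries of 6 inguinal lymph node samples were made with a kit that does not mark strand. The authors deposited read counts divided by 1 size factor per sample, a normalized signal, with their own log2 fold changes, standard errors and p-values. The submitters' processing notes list DESeq2, DESeq (no versions) and GRCm38, and for the aligner and counter: not given in the sources used here. The authors' deposited table gives 0 of the 10 members an adjusted p, and the smallest unadjusted p there is 0.128 (Per1).

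As the values are normalized, the test was limma-trend (R 4.3.3, package limma 3.58.1) for genes with a mean of at least 10, on the log2(value + 1) scale and with no covariate, and p-values were adjusted by Benjamini-Hochberg over 9076 genes. Fold changes are on that scale, which understates changes of low genes. Every non-zero value was a whole multiple of its sample's smallest value (100% within 1e-06), which recovered reads for depths, levels per kilobase of the union of exons (GENCODE M21) and count tests as alternatives: edgeR 4.0.16, which called 107 genes, DESeq2 1.42.0 and limma-voom. The other alternatives were pseudocounts, filters, quantile and TMM normalization, thinning, the replicate number as a block and leaving out each library. The fits were tested on simulated data. Reads carry no molecular identifiers, so intervals from reads cover counting error only. The labels name 3 mice a group, and replicate libraries differed by more than sampling noise (chi-square per degree of freedom 1.56 to 1.80).

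Named genes were all members, every called gene of 5 related lists, the uncalled genes of largest change up to 4 a list, and Cry2, Rora, Nfil3, Bhlhe40, Ciart, Nr3c1, Tsc22d3, Fkbp5 and Klf9. Members and lists were chosen with earlier results of these data known.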

Additional observations from a re-analysis of the deposited data

How the results depend on the processing

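No clock gene was called under any of the 17 alternatives, with 0 of 3 to 10 members called where members had an adjusted p; DESeq2 gave them none. Outside the omission of libraries, 80 of 83 member fold changes kept their sign. The 3 that turned were Arntl with edgeR (-0.0060) and limma-voom (-0.00023) and Per2 with thinned libraries (-0.0082). Leaving out 1 library at a time gave ranges of -0.14 to 0.19 for Arntl, -0.10 to 0.15 for Per2, -0.012 to 0.23 for Cry1, -0.0058 to 0.40 for Nr1d2, -0.30 to -0.0016 for Tef, -0.080 to -0.0024 for Dbp, -0.40 to 0.034 for Rora and -0.21 to 0.97 for Bhlhe40. Other uncalled genes also moved by over 1.5 times: Wdr5 (0.13 to 0.37), Usp2 (-0.52 to -0.22), Noct (-0.36 to -0.17), Fkbp5 (-0.34 to -0.029), Egr2 (-0.54 to -0.071) and Crem (0.045 to 0.36). Per2 was under the minimum mean without control 3. The number of genes called over the whole table was 100, against 179 with no filter, 50 with DESeq2 (28 higher and 22 lower, of 3759 genes with an adjusted p) and 44 (without control 1) to 113 (without perampanel 1) when a library was left out, 55 without control 2. The cause was not tested.

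The labels do not say whether libraries with the same replicate number form a pair. Deviations from the group means correlated weakly between same-numbered libraries, by 0.033, 0.033 and 0.016. Each library nevertheless correlated best with its own number, a hint from the data and not from the design. With the replicate block 103 genes and 0 members were called, and Egr1 passed (adjusted p = 0.0287), as it did with no filter (0.00524). With a mean of at least 50 the lists kept their counts of calls. Nr1d1, Per3 and Per2 had few reads, with 35, 39 and 62 in all, while for Per1 and Nr1d2 reads spread within groups by 2.28 and 1.94 times the counting variance.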

Other observations

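In both groups the library numbered 1 had the highest clock balance score (0.23 in control 1 and 0.19 in perampanel 1) and the library numbered 3 the lowest (-0.17 and -0.28). Arntl was lowest in the libraries numbered 1 (20.7 and 22.4 normalized read counts), next in those numbered 2 (25.6 and 25.2) and highest in those numbered 3 (33.1 and 32.1), from 21, 28 and 36 reads in controls and 22, 25 and 28 under perampanel. The ratio of Dbp to Arntl had the reverse order in both groups. The labels do not say that a number marks a shared day, cage or order of collection, and within groups the reads of Arntl spread by 1.20 times their counting variance, against a median of 1.28 over all genes tested. With the number as a block the standard error of the Arntl fold change was 0.245 in place of 0.257. This pattern was noticed in the data and was not tested.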
